A study of Drosophila melanogaster with 6 samples.

Results

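The genes described here are 10 components of insulin and adipokinetic hormone signalling in Drosophila melanogaster: Ilp2, Ilp3, Ilp5, Ilp6, ImpL2, InR, Thor, Akh, AkhR and tobi. They were chosen by name, with earlier results of these data known, and all 10 have a row among the 13541 genes of the authors' deposited table. That table compares heads of adult flies labelled miR-210 mutant (M22-3) with heads of w1118 flies, a white-eyed laboratory strain, with 3 samples in each group. The labels give no sex, age, diet or lesion for these flies. They do not tell whether samples of a group were separate batches of animals. A p-value here therefore reflects how these samples vary, and that variation may be technical.

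Insulin-like peptides of the fly are secreted hormones. Ilp2, Ilp3 and Ilp5 are made together by a small group of neurosecretory cells in the brain, and Ilp6 mainly by the fat body, the fly's organ for storing fat and glycogen. They bind the receptor InR. ImpL2 is a secreted protein that binds the peptides and limits their action. When insulin signalling is low, the transcription factor FOXO becomes active and raises Thor, the 4E-BP inhibitor of translation, and InR itself. Adipokinetic hormone (Akh) is the counterpart of glucagon. It comes from the corpora cardiaca, glands near the neck, and acts through AkhR on the fat body to release stored fat and sugar. The glucosidase gene tobi, named as a target of brain insulin, responds to both systems.

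In mutant heads tobi, ImpL2 and AkhR rose, and no member fell, by the authors' own test with a threshold of 0.05 on the adjusted p. For tobi, ImpL2 and AkhR the authors' deposited table lists adjusted p-values of 2.03e-05, 0.0177 and 0.0440. Of all 11155 genes tested by the authors, 2.56% rose, 1.89% fell and 4.46% changed in either direction, against 3 of 10 members higher and 0 lower. At an unadjusted p under 0.05 there were 7 of 10 members and 12.0% of all tested genes in the authors' deposited table. The members' median log2 fold change, mutant over control, was 0.55, against -0.04 over all tested genes, and 8 of the 10 were positive. As the members were chosen with earlier results of these data known, these comparisons describe the chosen set and do not test it.

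The authors' group means hold enough digits to recover each library behind them, as counts divided by the authors' size factors ("normalized counts"). Which numbered sample each library is cannot be read from the means, so libraries are called deepest, middle and shallowest by size factor within a group. Reads in recovered genes ranged from 6257409 to 9194231 in mutant libraries and from 8915003 to 16462836 in control libraries. For 7 members the 3 mutant and 3 control libraries did not overlap, 6 higher and 1 lower in the mutant. Among the 10783 tested genes with recovered libraries, 18.3% did not overlap, 9.10% higher and 9.21% lower. The deepest library of each group stands apart from the other 4 for many genes. limma, run across all recovered genes without regard to that, called 0 members and 115 of 11596 genes (0.992%). With the deepest library as a term it called 5 members and 16.0% of genes, and those members were Ilp2, Ilp6, ImpL2 and AkhR, higher, and Ilp3, lower. Without the deepest libraries it called 4 members (Ilp2, Ilp3, Ilp6 and ImpL2) and 7.58% of genes. The deepest-library term comes from the size factors of the recovered libraries, and no label links the deepest mutant library to the deepest control library. Every adjusted p given with this term rests on that choice.

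**Figure D1:**
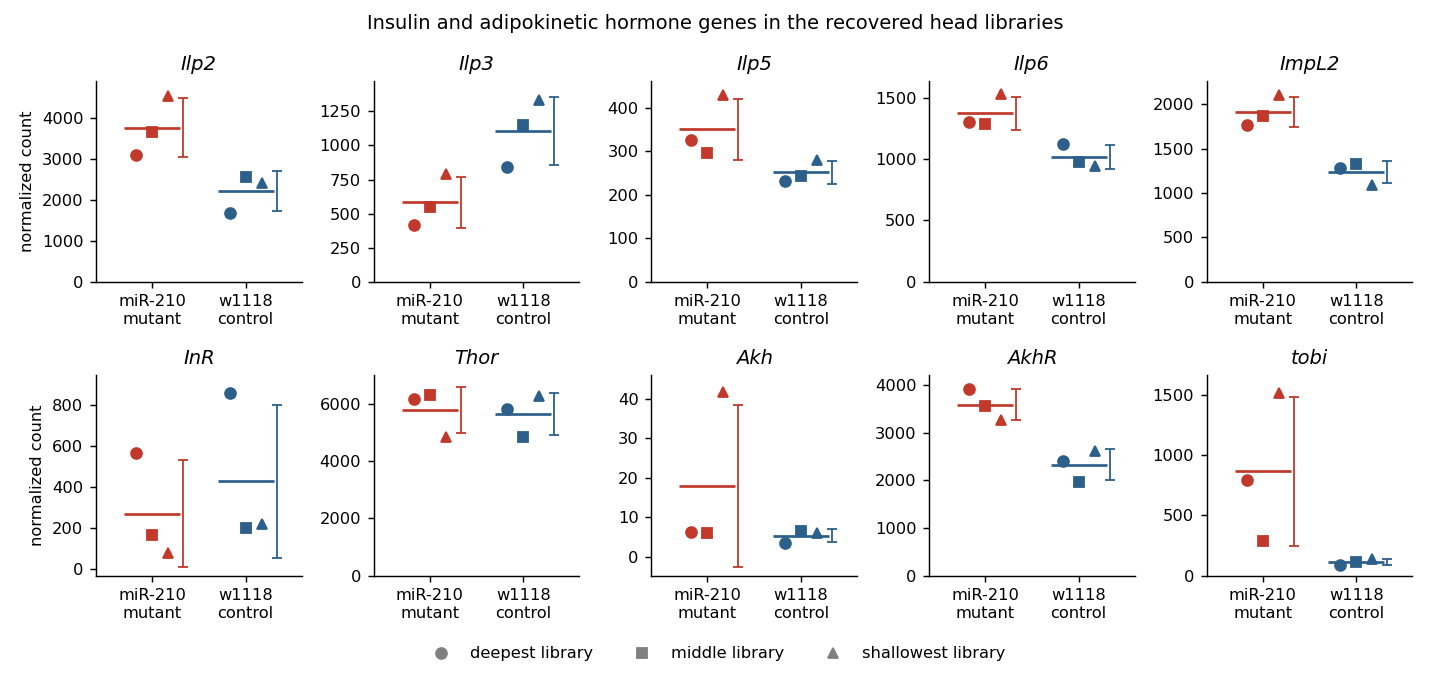
Normalized count (vertical axis, linear) of each member in every recovered library, mutant left and control right; horizontal lines are means and bars 1 SD of 3 libraries. Ilp2, Ilp5, Ilp6, ImpL2, AkhR and tobi are higher in all 3 mutant libraries than in any control library, Ilp3 is lower, and InR, Thor and Akh overlap.

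Among the brain peptides, Ilp2 was higher and Ilp3 lower in every mutant library than in any control library, and neither passed the authors' threshold. Both genes lie on 3L (dm6), Ilp2 from 9799698 to 9800440 on the plus strand and Ilp3 from 9801298 to 9802120 on the minus strand, with 857 bases between them. Ilp2 had normalized counts of 3100, 3648 and 4523 in the deepest, middle and shallowest mutant libraries, against 1669, 2557 and 2422 in the control libraries taken in the same order. The lowest mutant library was 1.21 times the highest control library. The authors' deposited table gives Ilp2 a log2 fold change of 0.76 (adjusted p = 0.0970). limma with the deepest library as a term gave Ilp2 a difference of 0.77 ± 0.11 (SE; adjusted p = 0.00137), and limma without that term an adjusted p of 0.262.

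Ilp3 had normalized counts of 419, 546 and 789 in the mutant libraries, against 839, 1150 and 1330 in the control libraries. The groups did not overlap, but the highest mutant and the lowest control library were close, with a control to mutant ratio of 1.06. The authors' deposited table gives Ilp3 a log2 fold change of -0.92 (adjusted p = 0.0976). limma gave Ilp3 -0.94 ± 0.14 (SE; adjusted p = 0.00164) with the deepest library as a term and an adjusted p of 0.262 without it. In both groups the deepest library was the lowest for both peptides, at 0.759 times the mean of the other mutant libraries for Ilp2 and 0.628 times for Ilp3, and at 0.671 and 0.677 times in the control.

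Ilp5 lies 21228 bases to the right of Ilp3 (3L from 9823349 to 9823897, minus strand). Its normalized counts were 327, 296 and 430 in the mutant libraries, against 232, 243 and 281 in the control libraries. The groups were separated by little, the lowest mutant library being 1.06 times the highest control library. The authors' deposited table lists 0.48 on the log2 scale for it (adjusted p = 0.410), and limma with the deepest library as a term gave an adjusted p of 0.0631. Ilp2, Ilp3 and Ilp5 each have 2 exons in the reference annotation and lie within introns of genes on the plus strand, Ilp2 and Ilp3 in CG32052 and Ilp5 in CG43897, with no exonic base shared. In bulk heads, fewer cells of a type and less RNA per cell cannot be told apart.

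Within a library, the ratio of 2 transcripts does not depend on how that library was scaled. These ratios were examined after the values had been seen. Ilp3 stood at 0.135, 0.150 and 0.174 of Ilp2 in the deepest, middle and shallowest mutant libraries, against 0.503, 0.450 and 0.549 in the control libraries. The ratio varied less within each group than either level did, and the groups lay well apart. It averaged 0.153 ± 0.020 in the mutant and 0.50 ± 0.05 in the control (SD over 3 libraries), and from the mean log2 ratios it was 3.28-fold lower in the mutant. Two-sided exact permutation over the 6 libraries gave p = 0.1, the smallest value that 3 against 3 allows. This outcome was fixed in advance, since Ilp3 was lower and Ilp2 higher in every mutant library than in any control library. It adds nothing to the separation of the 2 levels.

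Ilp3 made up 12.3% ± 1.42 of the summed normalized counts of the 3 brain peptides in the mutant and 30.9% ± 1.95 in the control (SD over 3 libraries). Ilp2 made up 80.2% ± 1.28 in the mutant and 61.9% ± 2.49 in the control. Ilp5 made up 7.53% ± 0.95 in the mutant and 7.19% ± 1.17 in the control, a difference smaller than either SD. The ratio of Ilp3 to Ilp5 was 1.28, 1.84 and 1.83 in the mutant libraries, against 3.62, 4.74 and 4.73 in the control libraries. The lack of overlap in this ratio follows from the levels, as Ilp3 was lower and Ilp5 higher in every mutant library. The ratio of Ilp2 to Ilp5 overlapped, with 9.49, 12.3 and 10.5 in the mutant libraries, against 7.21, 10.5 and 8.62 in the control libraries.

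Dsk, the gene of the drosulfakinin peptides and a listed marker named outside the rule, is another product of these neurosecretory cells and also of other brain neurons. It had normalized counts of 1283, 1303 and 1524 in the mutant libraries, against 1384, 2525 and 1862 in the control libraries, and the groups overlapped. The authors' deposited table gives Dsk -0.49 on the log2 scale (adjusted p = 0.557). Set against Dsk, Ilp2 was 2.33-fold higher and Ilp5 1.89-fold higher in the mutant, both without overlap, while the ratio of Ilp3 to Dsk overlapped between the groups. Of the 6 ratios among these 4 genes, 4 did not overlap, and their exact permutation p of 0.1 became 0.15 after Benjamini-Hochberg adjustment over the 6. For Ilp3 to Ilp2 and Ilp3 to Ilp5 the separate levels fixed that outcome. Only the ratios to Dsk and that of Ilp2 to Ilp5 could have come out either way. The share of non-overlapping ratios among other gene pairs was not examined, so the count is a description.

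**Figure D2:**
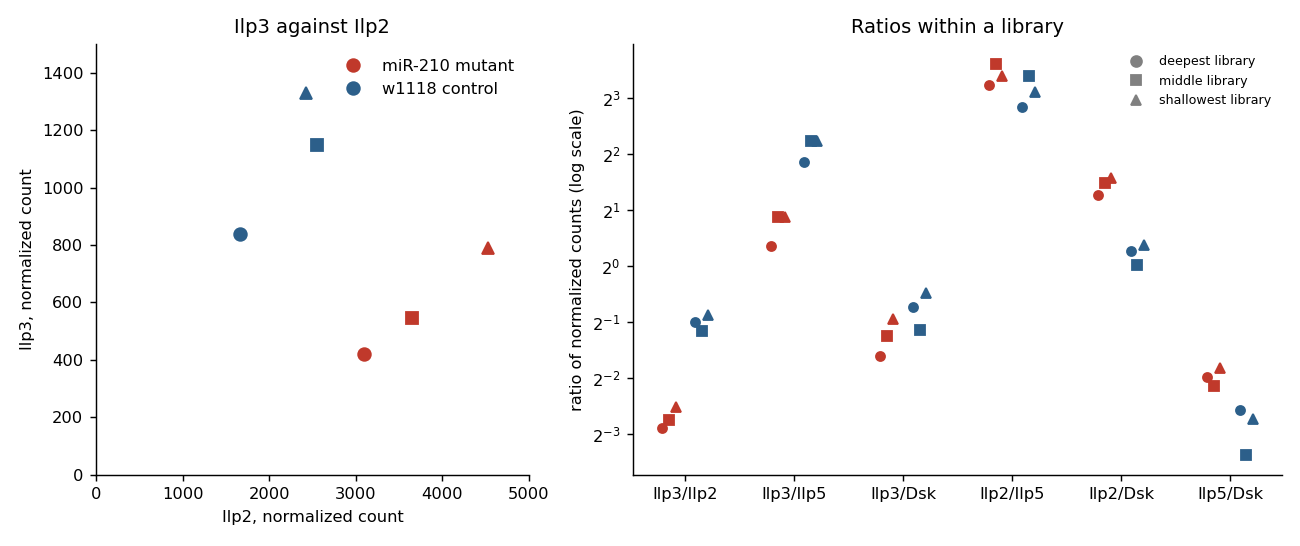
Left, normalized counts of Ilp3 against Ilp2 in each library; right, ratios of transcripts of the insulin-producing cells within each library on a log scale, mutant in red and control in blue, with marker shape giving the library's depth rank. The 3 mutant libraries lie between 0.135 and 0.174 for Ilp3 to Ilp2 and the 3 control libraries between 0.450 and 0.549.

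Ilp6, the fat body peptide, lies on X (2331493 to 2334658, minus strand). It had normalized counts of 1305, 1284 and 1526 in the mutant libraries, against 1124, 975 and 941 in the control libraries. The lowest mutant library was 1.14 times the highest control library. For Ilp6 the authors' deposited table has a log2 fold change of 0.44 (adjusted p = 0.223). limma as run gave Ilp6 an adjusted p of 0.368. With the deepest library as a term it gave 0.44 ± 0.12 (SE; adjusted p = 0.0266), and without the deepest libraries 0.55 (adjusted p = 0.0437).

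ImpL2, the secreted insulin-binding protein, rose. It was read at normalized counts of 1762, 1871 and 2102 in the mutant libraries, against 1286, 1328 and 1093 in the control libraries. The lowest mutant library was 1.33 times the highest control library, and neither group varied by more than 1.22 times from lowest to highest. The rise of ImpL2 was 0.63 on the log2 scale (adjusted p = 0.0177) per the authors' deposited table. limma gave 0.63 ± 0.16 (SE; adjusted p = 0.184), and with the deepest library as a term an adjusted p of 0.00488. ImpL2 lies on 3L from 4224006 to 4236147 (minus strand) and shares 1651 exonic bases with CG46460, which the reference places on the same strand. CG46460 has no row in the authors' deposited table, and how reads of such shared exons were counted is not given in the sources used here.

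The insulin receptor gene InR, on 3R from 21570248 to 21619321 (minus strand), was read mainly in the deepest libraries. It had normalized counts of 566, 165 and 78.9 in the mutant libraries, against 859, 200.0 and 220 in the control libraries. The deepest library was 4.65 times the mean of the others in the mutant and 4.09 times in the control, so the spread within a group was larger than the difference between the groups. InR has a log2 fold change of -0.66 (adjusted p = 0.905) per the authors' deposited table. Without the deepest libraries the InR mean came to 122 in mutant heads and 210.1 in control heads, and limma on those 4 libraries gave an adjusted p of 0.153. InR is the longest member, with 11367 exonic bases, against 478 to 3182 in the other 9.

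Thor, the 4E-BP gene, is a direct target of FOXO. Thor was read at normalized counts of 6200, 6329 and 4868 in the mutant libraries, against 5843, 4855 and 6293 in the control libraries. The 2 ranges nearly coincided. Per the authors' deposited table Thor differed by 0.03 on the log2 scale (adjusted p = 0.987), and limma gave 0.03 ± 0.18 (SE). Thor lies on 2L from 3478434 to 3479612 (plus strand).

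Akh itself was near the limit of detection, as 6, 5 and 28 reads in the mutant libraries and 6, 7 and 6 reads in the control libraries. Normalized counts were 6.17, 6.05 and 41.7 in the mutant libraries, against 3.48, 6.51 and 5.98 in the control libraries. The shallowest mutant library alone was high, and without it the mutant mean was 6.11 instead of 18.0. The authors' deposited table gives a log2 fold change of 1.75 (adjusted p = 0.475). Akh is the defining transcript of the corpora cardiaca (3L from 4141467 to 4142070, plus strand).

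AkhR, the receptor of the hormone, rose. Its normalized counts were 3919, 3571 and 3273 in the mutant libraries, against 2417, 1968 and 2611 in the control libraries. The lowest mutant library was 1.25 times the highest control library. The rise of AkhR was 0.62 on the log2 scale (adjusted p = 0.0440) per the authors' deposited table. The adjusted p became 0.0533 when the adjustment covered every row with a p-value. limma gave 0.63 ± 0.17 (SE; adjusted p = 0.215), and with the deepest library as a term an adjusted p of 0.00585. AkhR lies on 2L from 6711286 to 6716186 (minus strand).

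tobi changed most among the members by log2 fold change. Its normalized counts were 792, 286 and 1513 in the mutant libraries, against 84.2, 112 and 139 in the control libraries. The lowest mutant library was 2.05 times the highest control library, but the mutant libraries differed among themselves by 5.30 times, against 1.66 times in the control. The authors' means of tobi were 864 in mutant heads and 112 in control heads, and leaving out the shallowest mutant library lowered the mutant mean to 539. The authors' deposited table gives tobi a log2 fold change of 2.95 (adjusted p = 2.03e-05). limma gave 2.67 ± 0.58 (SE; adjusted p = 0.125) and did not call tobi under any of 16 settings, with adjusted p from 0.0556 to 0.390. tobi lies on 3R from 25344761 to 25346921 (minus strand) and shares 78 exonic bases with rha on the other strand, which was read at authors' means of only 4.97 in mutant and 7.91 in control heads.

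Most markers of the fat body and of the gut were also higher in mutant heads. Of 13 fat body markers, 7 rose and 0 fell in the authors' deposited table, with a median log2 fold change of 1.03. Those called were Lsp2, Lsp1beta, Yp2, Yp3, Obp99a, FASN1 and ppl. Not called by the authors' test were apolpp (adjusted p = 0.436), Apoltp (adjusted p = 0.386), Yp1, fit, Obp99b and Fbp1, and of these only Fbp1 was lower. Over all tested genes 2.56% rose and 1.89% fell. The 7 recovered fat body markers summed to normalized counts of 16826, 17498 and 33998 in the mutant libraries, against 6789, 7330 and 9800 in the control libraries. In the shallowest mutant library most of that sum came from fit (12450) and Obp99a (10956), and each recovered marker but Fbp1 was highest there among the mutant libraries. Yp1, Yp2, Yp3, FASN1, apolpp and Apoltp were too abundant to be recovered and are not in the sum. The sum of the recovered fat body markers was highest in the shallowest mutant library. Among the mutant libraries, Ilp2, Ilp3, Ilp5, Ilp6, ImpL2, Akh and tobi were also highest there. AkhR, InR and Thor were lowest there. Of 4 tested gut markers 2 rose, the amylase gene Amy-d and the mannosidase gene LManI (named for being called), and the summed level of the 4 was 1303, 1007 and 3096 in the mutant libraries, against 438, 868 and 517 in the control libraries. No recovered fat body or gut marker was at 0 in all libraries, but the fat body gene Fbp1, singled out after its values were seen, was read at normalized counts of only 0 to 4.84 in the mutant libraries and 4.98 to 12.1 in the control libraries. The part of these markers in the higher levels of tobi, AkhR, Ilp6, Tps1 and Gbp2 was not tested. Of 7 photoreceptor markers, 6 fell and 0 rose. Of 5 tested neuronal markers 0 changed in the authors' deposited table, with a median of -0.71, and 1 of the 5 had an unadjusted p under 0.05. limma on recovered libraries called 0 neuronal markers as run, 4 lower with the deepest library as a term and 1 lower without the deepest libraries.

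Per kilobase of exon, Thor and Ilp2 were the most abundant members in both groups. In mutant heads the mean normalized count per kilobase was 7681 for Thor, 5608 for Ilp2, 1128 for AkhR, 778 for Ilp3, 734 for Ilp5, 717 for ImpL2, 569 for Ilp6, 410 for tobi, 33.5 for Akh and 23.7 for InR. In control heads it was 7501 for Thor, 3308 for Ilp2, 1473 for Ilp3, 733 for AkhR, 527 for Ilp5, 463 for ImpL2, 420 for Ilp6, 53.1 for tobi, 37.5 for InR and 9.93 for Akh. Ilp3 ranked above AkhR in the control, with libraries from 1117 to 1771 against 618 to 820 per kilobase. In the mutant the 2 genes overlapped, with 558 to 1050 for Ilp3 and 1029 to 1232 for AkhR. The mutant libraries of Ilp3, Ilp5 and ImpL2 overlapped per kilobase, so the order among these 3 lies within their spread, while Ilp6, with 532 to 633, lay below ImpL2, with 661 to 788. In the control, Ilp5, ImpL2 and Ilp6 overlapped from each neighbour to the next. Thor and Ilp2 overlapped in the mutant and not in the control. The mutant libraries of tobi, from 136 to 719 per kilobase, overlapped those of Ilp3, Ilp5, ImpL2 and Ilp6. Akh and InR overlapped in the mutant, with 11.3 to 77.7 for Akh and 6.94 to 49.8 for InR. In the control, tobi and InR overlapped, with 40.0 to 66.3 for tobi and 17.6 to 75.6 for InR.

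The genes whose libraries followed a changed member most closely were found by Pearson's r of log2(normalized count + 1) over the 6 libraries, among 9430 genes with a mean of at least 10. These are descriptions, since a shared difference between the groups alone raises r. For tobi they were sro (r = 0.996), CG14526 (0.990) and CG31777 (0.986), for ImpL2 Debcl (0.990), l(3)72Dp (0.988) and CG6012 (0.988), and for AkhR CG9657 (0.987), Mdr65 (0.986) and CG34437 (0.983). Of these 9, l(3)72Dp and CG6012 also rose, by 0.59 and 3.44 on the log2 scale (adjusted p = 0.0183 and 1.1e-08) per the authors' deposited table.

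The list of other insulin and TOR pathway genes, which holds the peptides Ilp1, Ilp7 and Ilp8, 2 secreted binding proteins and the chain from the receptor substrate to S6 kinase, showed no called gene. Of its 35 tested genes, 0 rose and 0 fell in the authors' deposited table, against 4.46% of all tested genes called in either direction. The count of 0 called is not taken to stand out from that share. By the same test 0 had an unadjusted p under 0.05, against 12.0% of all tested genes. limma called 0 of the 34 recovered, and 6 with the deepest library as a term (1 higher, 5 lower), where it called 16.0% of all genes. The median log2 fold change was -0.19, against -0.04 over all tested genes. Of the 35, 26 were negative, against 6051 of all 11155 tested. The smallest p belonged to melt, a membrane-associated regulator of FOXO, with a log2 fold change of -0.54 (adjusted p = 0.464) per the authors' deposited table. melt had normalized counts of 141, 113 and 81.8 in the mutant libraries, against 149, 169 and 172 in the control libraries. Some genes were named outside the rule, after their values were seen. For these the authors' deposited table gives -0.11 for chico, the receptor substrate, -0.19 for the kinase gene Akt1 and -0.14 for foxo. For Sdr, a secreted decoy of InR also named outside the rule, the authors' deposited table has 0.39 (adjusted p = 0.466).

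Of 30 tested genes of the AKH pathway, from its G proteins to lipases and glycogen enzymes, 2 fell and 0 rose in the authors' deposited table, and the median log2 fold change was -0.13. This count, like those of the 2 lists that follow, is read against 4.46% of all tested genes called, and none of the 3 is taken to stand out from it. Galphaq, a G protein subunit that also carries the light response of photoreceptors, fell by 0.82 as a log2 fold change (adjusted p = 5.77e-05) per the authors' deposited table. Galphaq had normalized counts of 1405, 1194 and 1155 in the mutant libraries, against 2223, 2255 and 2167 in the control libraries, with no overlap. Pka-C3, a protein kinase A catalytic subunit gene, fell by 0.92 (adjusted p = 0.0474) per the authors' deposited table, with normalized counts of 1193, 864 and 711 in the mutant libraries, against 2151, 1410 and 1682 in the control libraries. The call of Pka-C3 was lost when the adjustment covered every row with a p-value. limma called neither gene as run (adjusted p = 0.0763 for Galphaq and 0.209 for Pka-C3) and both with the deepest library as a term. Photoreceptor markers fell alongside these 2 genes, and the part of that in their values was not tested. Among list genes chosen after their values were seen, the authors' deposited table gives 0.64 (adjusted p = 0.117) for the lipid droplet gene Lsd-1, 0.54 (adjusted p = 0.107) for Lsd-2 and 0.30 (adjusted p = 0.900) for the lipase gene bmm.

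Of 24 tested targets of FOXO, insulin or AKH signalling besides the members, 1 rose and 0 fell, with a median log2 fold change of -0.04 in the authors' deposited table. It was Tps1, the trehalose synthesis enzyme gene, with authors' means of 55409 in mutant heads and 32243 in control heads, and a log2 fold change of 0.78 (adjusted p = 8.15e-07) per the authors' deposited table. Its libraries were too abundant to be recovered. sug, the sugar-responsive regulator sugarbabe, was chosen after its values were seen and had 2556, 2928 and 3270 normalized counts in the mutant libraries, against 1691, 1029 and 2133 in the control libraries. The authors' deposited table gives sug 0.85 on the log2 scale (adjusted p = 0.135).

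A further list held genes that act on the insulin- and AKH-producing cells. Of 39 tested, 1 rose and 1 fell in the authors' deposited table, and the median log2 fold change was -0.12. Gbp2, a fat body growth-blocking peptide that promotes insulin release in larvae, rose by 0.73 (adjusted p = 0.0214) per the authors' deposited table. It was read at normalized counts of 7561, 7860 and 9922 in the mutant libraries, against 4366, 5531 and 5425 in the control libraries. CrzR, the receptor of corazonin, fell by 0.74 as a log2 fold change (adjusted p = 0.0134) per the authors' deposited table, with normalized counts of 400, 390 and 309 in the mutant libraries, against 589, 568 and 685 in the control libraries. limma called neither gene as run (adjusted p = 0.180 for Gbp2 and 0.151 for CrzR) and both with the deepest library as a term. TkR99D, a tachykinin receptor that acts in insulin-producing cells, was chosen after its values were seen and had normalized counts of 277, 270 and 265 in the mutant libraries, against 201, 176 and 158 in the control libraries. The authors' deposited table lists an adjusted p of 0.0736 for it.

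**Figure D3:**
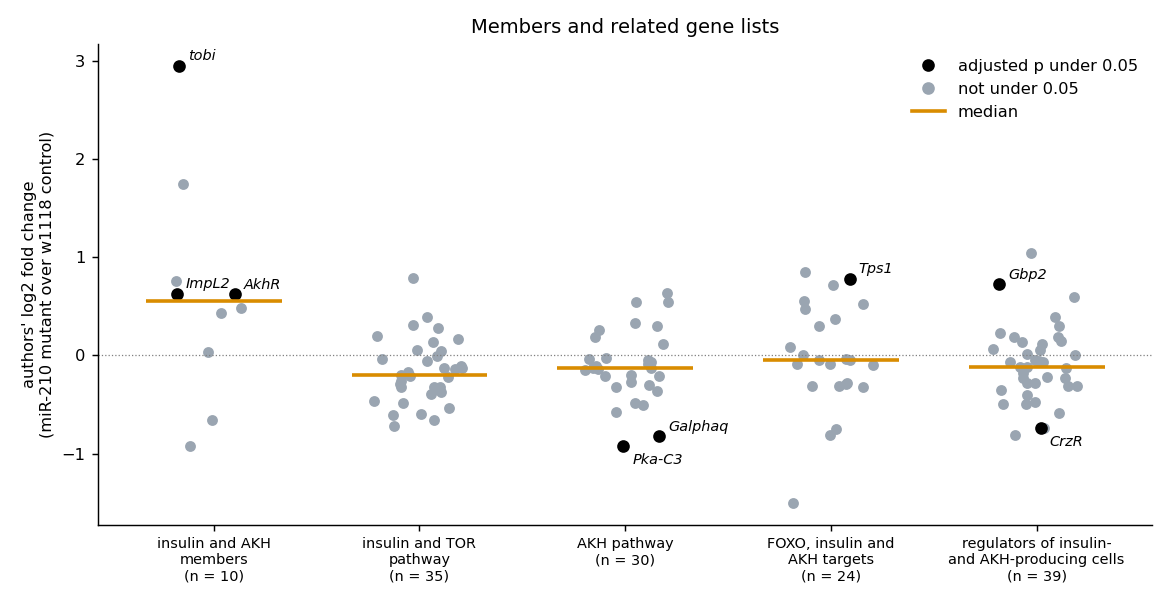
Authors' log2 fold change, mutant over control, of the members and of the genes of 4 related lists that the authors tested; black points have an adjusted p under 0.05 and orange lines are medians. The members' median is 0.55 and the medians of the 4 lists lie between -0.19 and -0.04, and 5 genes outside the members are black.

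**Figure D4:**
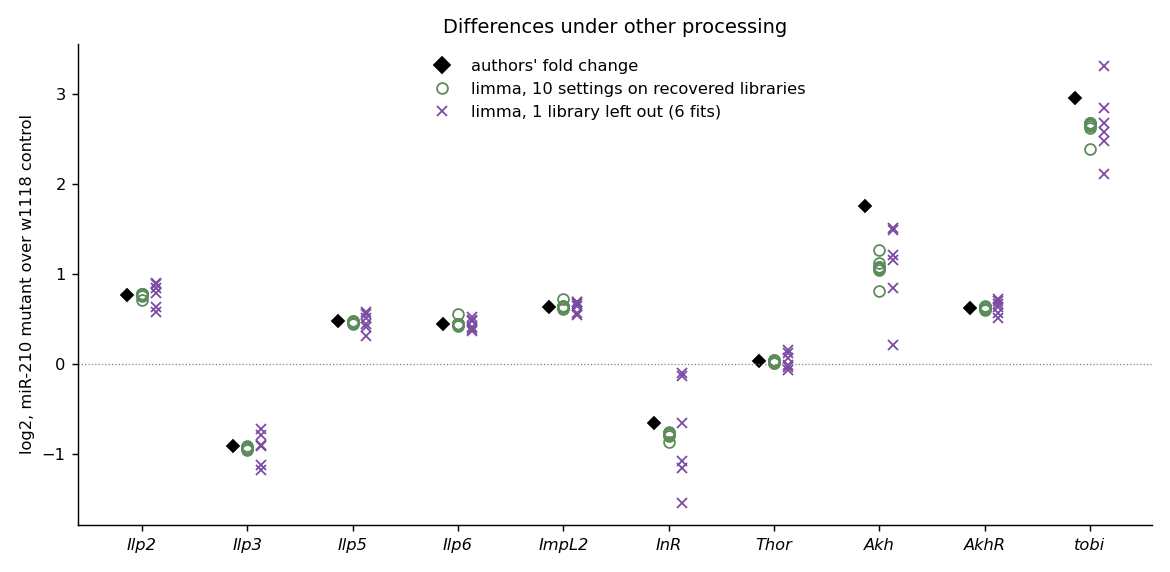
Log2 difference, mutant over control, of each member in the authors' table (black), in limma fits to the recovered libraries under 10 settings (green) and with 1 library left out (purple). The direction is the same in all fits for every member except Thor, which lies at 0.03 in the authors' table and between -0.074 and 0.15 with 1 library left out.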

How the data were processed

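Messenger RNA of adult heads was compared between 3 miR-210 mutant and 3 w1118 samples. The submitters' processing notes name FastQC, HISAT2, featureCounts, DESeq and build dm6, with no role or version for any. The deposited table holds, per group, a mean signal (counts divided by size factors, averaged by the authors). Per the file headers it also holds a log2 fold change, a p-value and an adjusted p-value, all computed by the authors. The sources used here give neither strandedness nor filters. Adjusted values matched Benjamini-Hochberg over 11155 genes; 2386 rows listed at 1 were treated as not tested. The planned count test could not be used, as the table has no column per sample, so calls are the authors' own.

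Each mean up to 10000 was searched for whole reads in 3 libraries; 1 solution was found for each of 13193 mutant and 13225 control means (tolerance 1e-10 reads), and 13169 genes were recovered in all 6 libraries. On means made from simulated reads (247 to 1500 per class), 100% were recovered. limma 3.58.1 (R 4.3.3, trend, robust) was run on log2(normalized count + 1) over genes whose mean was 1 or more. This scale understates changes of low genes. A limma run on simulated reads held no deepest-library effect, so it does not show how limma behaves on these libraries. Pairs of genes of the insulin-producing cells were compared as ratios, an alternative chosen after seeing the data. Genes outside the members were named by a rule (called genes of each list or, with none, the smallest p; the 3 highest r for each called member); exceptions among the lists are marked. Members and lists were chosen with earlier results of these data known. Some genes stand in more than 1 list. Sesn is in the insulin and TOR list and the target list, bmm in the AKH pathway and target lists, and daw and upd2 in the target and regulator lists. Gene positions matched the BDGP6 (dm6) annotation for all 10 members; of the listed names, Ilp4, S6, charb, Pepck1 and Lk were not matched and are not analysed here.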

Additional observations from a re-analysis of the deposited data

How the results depend on the processing

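Akh had 5 to 28 reads per library, which limits the precision of its values. InR was not called by limma as run, with the deepest library as a term or without the deepest libraries. No paired analysis was possible because the recovered libraries carry no replicate number. Of the members, the authors' table calls 3, and 5 at an adjusted p under 0.10, Ilp2 and Ilp3 being added. limma called 0 members as run, with pseudocounts of 0.5 and 5, with no filter or a mean of at least 10, with equal totals, TMM or median-of-ratios scaling, and with any 1 library left out, 5 with the deepest library as a term and 4 without the deepest libraries. Over all genes, where the authors call 497, limma called 115 as run, 100 and 124 with pseudocounts of 0.5 and 5, 107 with no filter, 104 with a mean of at least 10, 109, 112 and 113 with equal totals, TMM and median of ratios, 1855 with the term, 865 without the deepest libraries, and 23 to 75 with 1 library left out. For the AKH pathway, target and regulator lists (2, 1 and 2 calls by the authors) limma gave 0 in each of those 8 settings without the term and in each fit with 1 library left out, and for the insulin and TOR list 0 also. With the term the counts were 5, 4 and 8, and 6 for the insulin and TOR list. Without the deepest libraries, where 7.58% of all genes were called, they were 4 for the targets and 1 for the insulin and TOR list. The gene called in the insulin and TOR list was Sesn, which stands in both lists and is also among those 4. In that setting the AKH pathway had 0 higher and 3 lower, and the regulators 2 higher and 1 lower. At an adjusted p under 0.10 the regulators had 4, and adjusted over every row with a p-value the AKH pathway had 1, Pka-C3 being lost. The direction of Thor turned in 3 of the 6 fits with 1 library left out, which ranged from -0.074 to 0.15. The other 9 members kept their direction in all 16 limma fits, tobi ranging from 2.11 to 3.31 and Ilp3 from -1.18 to -0.73 with 1 library left out. The difference in the log2 ratio of Ilp3 to Ilp2 was -1.71, and -1.81 to -1.63 with 1 library left out. The cause of these changes was not tested.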
